A study of Mus musculus with 32 samples.

Results

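Immediate early genes are the genes that neurons switch on within minutes of synaptic activity, before any new protein is made. The 10 followed here are Arc, Npas4, Fos, Fosb, Jun, Junb, Egr1, Egr3, Nr4a1 and Ier2, chosen by name. All 10 were found among the 44081 genes of the 3′UTR count table, and 4 of them had reads in enough libraries for a test. The libraries come from 16 primary hippocampal neurons of E18 C57BL/6 mice, kept in culture for 15 days. The dendrites of each neuron were cut from the cell body, and dendrites and soma were drawn up with micropipettes into separate tubes. This gave 16 Dendrite and 16 Soma libraries, paired by neuron. All neurons were untreated wild-type cells, and no stimulus was given in any group. Polyadenylated RNA was amplified by repeated in vitro transcription (aRNA) with 3 rounds in neurons 1 to 4 and 2 rounds in the remaining 12. The neurons came from several cultures collected over several days, and the labels do not tie a neuron to a culture. The sample titles share a first letter among successive neurons, such as neurons 15 and 16. What the letter stands for is not given, and its part in the results was not tested.

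Calcium entry through synaptic receptors and channels activates kinases that phosphorylate CREB and the partners of SRF, which already sit at the promoters of immediate early genes. Most of these genes encode transcription factors: Fos and Jun proteins pair into AP-1, the Egr proteins are zinc finger factors, Nr4a1 is an orphan nuclear receptor, and Npas4 is a factor specific to neurons. Arc differs from them, because its protein acts at synapses, where it promotes the removal of AMPA receptors, and its mRNA is a textbook case of an RNA carried into dendrites. The mRNAs are short lived, and in several of them AU-rich elements in the 3′UTR speed decay.

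The stretches below are shown because they hold the letters of the kinds of element named above, the CREB site and the AU-rich element. RefSeq promoters (GRCm38.p6, 250 bases before to 50 after the start) were available for 6 of the 10 genes, namely Fos, Fosb, Jun, Junb, Nr4a1 and Npas4. The letters TGACG, the core of the DNA element that CREB binds, were searched on both strands. They were present in 5 of the 6 promoters (all but Jun) and in 20.8% of the 32851 promoters in the table. The match nearest to the start is printed for each, with the match in capitals; CGTCA is the same site read on the other strand.
Fos promoter, chr12:85473814-85473838, plus strand: ttccgcccagTGACGtaggaagtcc
Fosb promoter, chr7:19310091-19310115, minus strand: gagttgcgggTGACGcaagcgcggg
Junb promoter, chr8:84978840-84978864, minus strand: ttcctgacagTGACGcgagccgcct
Nr4a1 promoter, chr15:101266796-101266820, plus strand: cctctccatgCGTCAcggagcgctt
Npas4 promoter, chr19:4990126-4990150, minus strand: cgtcacgggaTGACGtcggaagtct

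In the last 500 bases of the 3′UTR (GENCODE models on GRCm38; 485 bases for Junb, whose 3′UTR is shorter), the AU-rich heptamer TATTTAT was found in 2 of the 10 genes, Fos and Jun, and in 15.2% of 14283 genes. The shorter core ATTTA, which the heptamer contains, was found in 6 of 10 genes and in 59.2% of all. The 3 heptamers are printed here in capitals, as DNA of the transcribed strand, since this is the region that the 3′UTR reads cover.
Fos 3′UTR, chr12:85477105-85477129, plus strand: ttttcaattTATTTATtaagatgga
Fos 3′UTR, chr12:85477129-85477153, plus strand: attctcagaTATTTATatttttatt
Jun 3′UTR, chr4:95049081-95049105, minus strand: gcttgtgcaTATTTATaatagcgtt
A match of these letters is a description of the sequence and was not tested as a site.

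Reads counted on 3′UTRs numbered 646521 to 6954420 per Dendrite library (median 1605714) and 925525 to 21169974 per Soma library (median 6165691). A library with 0 reads of a gene can still hold up to 3 reads' worth of it, which is 0.431 to 4.64 CPM in dendrites and 0.142 to 3.24 CPM in somas; such limits cover counting error only, since the reads carry no molecular identifiers. Levels below are normalized reads, counts divided by a size factor of the library. Gad1 and Gad2, enzymes of the neurotransmitter GABA, had reads in all 32 libraries, while Slc17a7, the vesicular glutamate transporter of pyramidal cells, had reads in 13 of 16 dendrites and 13 of 16 somas. The summed level of 5 interneuron markers ran from 4597 to 52615 normalized reads, and that of 5 pyramidal markers from 13.1 to 8323. Medians of the summed level were 597 (dendrites) and 292 (somas) for the pyramidal markers, 449 and 155 for astrocyte markers, 84.3 and 56.2 for those of oligodendrocytes (up to 1710 in a dendrite library) and 12.5 and 2.24 for those of microglia, and their part in the results was not tested. The dendritic mRNA Map2 was higher in the dendrites in 14 of 16 neurons. It was lower there in neuron 2 (1140 normalized reads against 1921 in the soma) and in neuron 14 (365 against 962). Neuron 14 was also the only neuron with a smaller mitochondrial share of reads in its dendrites, 4.30% (95% Wilson interval 4.27 to 4.33) against 4.97% (4.95 to 4.99). Gad1 was higher in the dendrites than in the soma only in neuron 2 (7397 against 2684), and Gad2 only in neurons 2 (3194 against 1158) and 14 (3655 against 3501). Other values ran with the labels. Gad1 in neuron 14 was lower in the dendrites (3045 against 8735). The mitochondrial share in neuron 2 was higher in the dendrites, at 2.39% (95% Wilson interval 2.36 to 2.43). Somas held more genes with at least 10 reads than dendrites, except in neuron 5 (9871 in the dendrites against 6889). On this count neurons 2 (7285 in the dendrites against 8166) and 14 (8265 against 9536) also ran with the labels. Whether the 2 tubes of such a neuron were exchanged was not tested, and an exchange would turn every difference between its compartments given below. The main counts are therefore also given without these 2 neurons. The dendrites of neurons 15 and 16 held the fewest genes with at least 10 reads, 1570 and 2485, and mitochondrial genes took 35.8% and 32.4% of their reads.

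Immediate early gene mRNA was present in both compartments, but thinly and unevenly. Dendrites held reads of 4.06 ± 2.26 of the 10 genes (SD, n = 16; range 0 to 9), and somas of 4.63 ± 2.28 (SD, n = 16; range 1 to 9). The soma had more of the genes than the dendrites in 10 neurons and fewer in 6, and the ranges overlapped almost fully. Without neurons 2 and 14 the means were 3.64 ± 1.95 in dendrites and 4.36 ± 2.10 in somas (SD, n = 14).

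**Figure D1:**
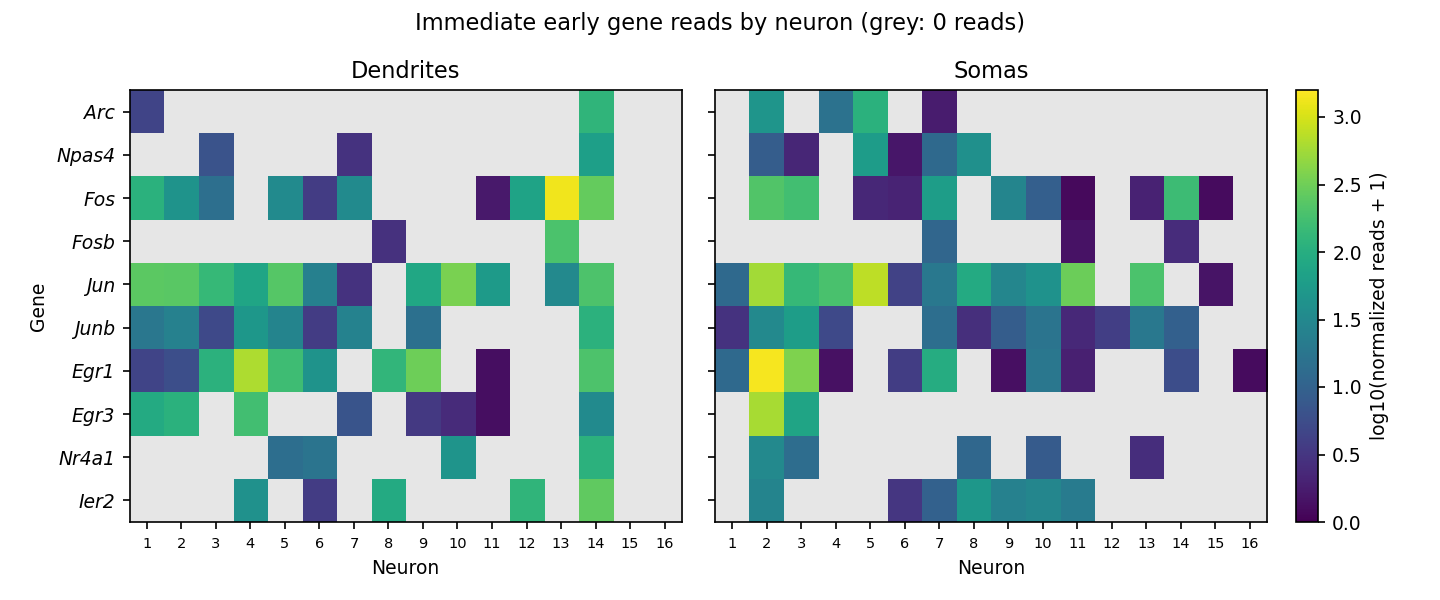
Normalized reads, as log10 of the value plus 1 (colour), of each immediate early gene (rows) in the dendrites (left) and soma (right) of neurons 1 to 16 (columns), with grey for 0 reads. Reads of Jun fill 25 of the 32 libraries, while Arc is coloured in 6 and Fosb in 5, and the columns of the dendrites of neurons 15 and 16 are grey throughout.

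The genes fell into a widely detected and a rarely detected set. Jun had reads in 25 of 32 libraries, and Fos, Junb and Egr1 in 21 each. Next came Ier2 with 12 and Egr3 with 10, then Nr4a1 and Npas4 with 9, Arc with 6 and Fosb with 5. Of all genes in the table, 85.9% were seen in fewer libraries than Jun and 58.3% in fewer than Arc.

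The 2 libraries richest in these genes were the soma of neuron 2 and the dendrites of neuron 14, each with 9 of 10, lacking only Fosb. They belong to the 2 neurons in which Map2 was lower in the dendrites. These libraries also had the highest Slc17a7 level of their compartment, 648 normalized reads in the soma of neuron 2 and 838 in the dendrites of neuron 14, and the part of either in the result was not tested. The soma of neuron 7 followed with 8 genes and that of neuron 3 with 7. At the other end, the dendrites of neurons 15 and 16 had reads of 0 of the 10 genes, and their somas had 2 and 1, with 3 reads and 1 read in all among 10573290 and 10717886 reads. The soma of neuron 12 held only Junb, with 2 reads.

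**Figure D2:**
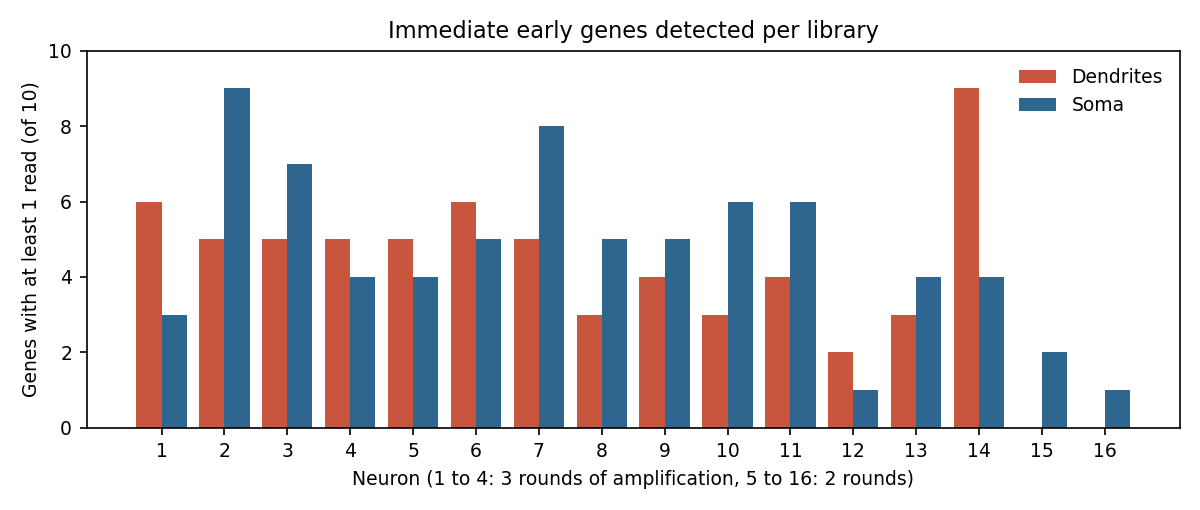
Number of the 10 immediate early genes with at least 1 read (y axis) in the dendrites and soma of each neuron (x axis). The bars reach 9 for the soma of neuron 2 and the dendrites of neuron 14, and the dendrites of neurons 15 and 16 have no bar.

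Across the 16 dendrites, the number of these genes with reads followed the number of all genes with at least 10 reads (Spearman rho 0.76), and over the 16 somas this was weaker (rho 0.28). Without neurons 2 and 14 rho was 0.72 in dendrites and 0.45 in somas. Against total 3′UTR reads rho was -0.52 in dendrites and -0.03 in somas. With Slc17a7 rho was 0.38 in dendrites and 0.63 in somas, and with the mitochondrial share -0.67 and -0.21. These are descriptions over libraries that differ in depth, and the part of each measure in the counts was not tested.

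Reads of a gene in the soma of a neuron were often not matched in its dendrites. Of 160 combinations of gene and neuron, 99 had reads in at least 1 compartment, of which 40 had them in both, 25 in the dendrites alone and 34 in the soma alone. The share with both was 40.4%, against 49.3% over all genes and 67.2% over the genes tested below, and it was 40.0% without neurons 2 and 14. Dropout of a rare RNA and true absence cannot be told apart at 1 or 2 reads. Among the 67 combinations with at least 10 reads in 1 compartment, 36 (53.7%) had 0 reads in the other, against 37.0% over all genes and 27.8% over the tested genes. This was 29 of 53 (54.7%) without neurons 2 and 14.

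Arc (chr15:74669083-74672570, minus strand, 3 exons) had reads in the somas of 4 neurons and the dendrites of 2, and by 3′UTR counts no neuron had reads in both. In somas the counts were 84 reads in neuron 5, 37 in neuron 4, 12 in neuron 2 and 2 in neuron 7, or 109, 15.2, 46.0 and 0.776 normalized reads, with 0 in the other 12. In dendrites neuron 14 had 78 reads (124 normalized) and neuron 1 had 1 read (3.49), with 0 in the other 14. The median was 0 in both compartments and the highest values were close, so that the groups overlapped. The mRNA best known for its dendritic transport was at 0 in the dendrites of all 4 neurons whose soma held it, and 10 neurons had no Arc read at all. Without neurons 2 and 14, Arc had 3 somas and 1 dendrite sample with reads, the latter with 1 read.

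Npas4 (chr19:4984355-4990316, minus strand), a transcription factor induced by calcium entry that shapes inhibitory synapses, followed a similar pattern. It had reads in 6 somas and 3 dendrites, with 2 neurons in common. The somas held between 0 and 57.3 normalized reads (median 0), with the highest in neurons 5 and 8 (44 and 71 reads). Among dendrites only neuron 14 exceeded 4 reads, with 40 reads or 63.7 normalized. It was seen in 5 somas and 2 dendrites when neurons 2 and 14 were left out, and the highest dendrite value was 5.52. Neuron 5 was therefore high in both Arc and Npas4 in its soma, as neuron 14 was in its dendrites.

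Fos (chr12:85473890-85477273, plus strand), the AP-1 subunit most used as a mark of recent activity, had reads in 10 dendrites and 11 somas, in 8 neurons in both. In dendrites it ran from 0 to 1345 normalized reads with a median of 8.24, and in somas from 0 to 215 with a median of 1.06. The highest dendrite value came from neuron 13 with 522 reads, where the soma had 5 reads (1.01 normalized). Neuron 14 was high in both, with 279 normalized reads in the dendrites and 155 in the soma, and neurons 2 and 3 were highest in the soma, at 215 and 168. The level was higher in the dendrites in 7 neurons and in the soma in 6, and without neurons 2 and 14 in 6 and 5, with medians of 1.67 in dendrites and 0.624 in somas.

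Fosb (chr7:19302696-19310051, minus strand), a close relative of Fos, was the gene seen least by 3′UTR reads. It had 77 reads (198 normalized) in the dendrites of neuron 13, the same library in which Fos was highest, and 0 in that soma. The other 4 libraries with reads held 27 in the soma of neuron 7, 4 in the soma of neuron 14 and 2 each in the soma of neuron 11 and the dendrites of neuron 8. The dendrites of neuron 13 thus held 68.8% of all Fosb reads.

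Jun (chr4:95049034-95052222, minus strand, 1 exon), the DNA-binding partner of Fos in AP-1, was the most constant of the 10. It had reads in 12 dendrites and 13 somas, and 11 neurons had it in both. Levels in dendrites ran from 0 to 363 with a median of 65.2, and those in somas from 0 to 765 with a median of 35.5. The somas of neurons 5 and 2 were highest, at 765 and 571, and among dendrites neuron 10 was highest at 363, followed by neurons 1, 2 and 5 at 248, 237 and 227. Neuron 14 was the only one with Jun in the dendrites alone, at 199 normalized reads with no read in the soma. Neurons 8 and 15 had it in the soma alone, at 90.6 and 0.485. The soma was higher in 9 neurons and the dendrites in 5, and the groups overlapped, although the somas of neurons 5 and 2 lay above every dendrite value. These counts were 8 and 4 without neurons 2 and 14.

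Junb (chr8:84974484-84978718, minus strand), a Jun relative with weaker activating capacity, was lower. Its levels ran from 0 to 113 in dendrites with a median of 3.41 and from 0 to 60.1 in somas with a median of 3.53. It was highest in the dendrites of neuron 14 and the soma of neuron 3, and 7 neurons were higher in each compartment (6 in each without neurons 2 and 14).

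**Figure D3:**
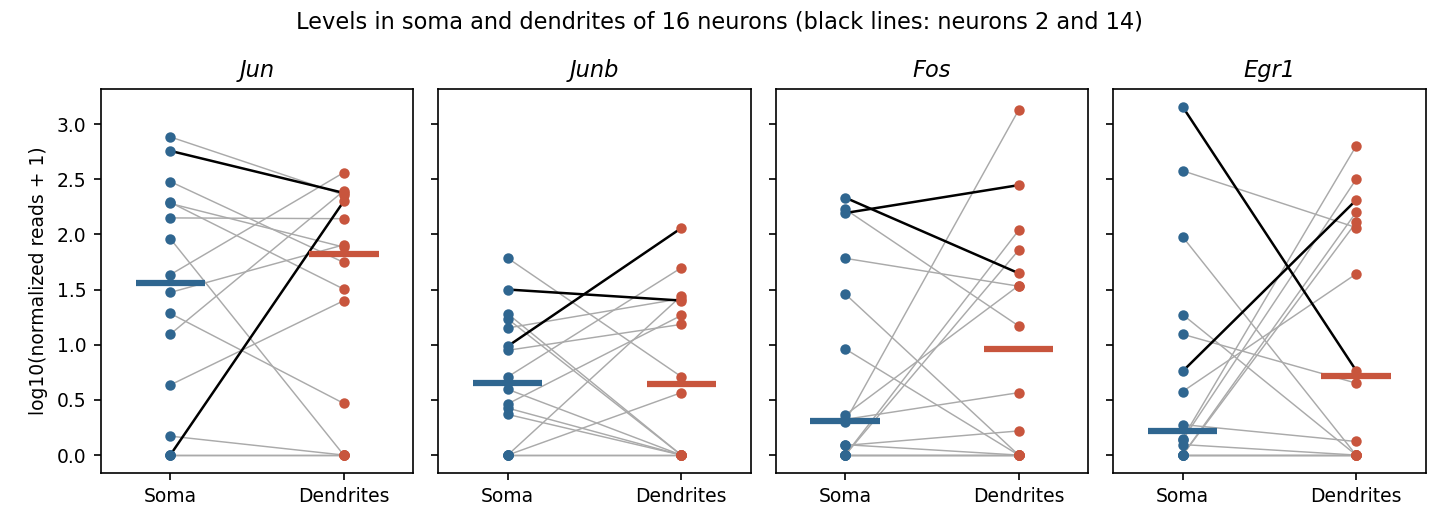
Levels of Jun, Junb, Fos and Egr1, as log10 of normalized reads plus 1 (y axis), in the soma and dendrites (x axis) of 16 neurons, with a line for each neuron, black for neurons 2 and 14, and a thick bar at the median. Lines rise and fall in every panel; for all 4 genes neuron 2 is higher in the soma and neuron 14 in the dendrites.

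Egr1, a zinc finger factor that binds GC-rich promoters, had reads in 10 dendrites and 11 somas, in 8 neurons in both. Dendrites held 0 to 633 normalized reads with a median of 4.16, and somas 0 to 1438 with a median of 0.652. High dendrite values came from neurons 4, 9, 14, 5, 8 and 3, at 633, 315, 204, 158, 128 and 114, and in 5 of these 6 neurons the soma was below 5. High soma values came from neurons 2, 3 and 7, at 1438, 377 and 94.3. Neuron 3 alone was high in both. Without neurons 2 and 14, Egr1 had reads in 8 dendrites and 9 somas, and its highest soma value was 377. Where the neuron's total reached 10 normalized reads, which was so in 11 neurons, more than 0.9 of it lay in the dendrites in 6 and less than 0.1 in 3.

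Egr3 (chr14:70077203-70082614, plus strand), a relative of Egr1 that the same kinds of signal induce, was seen in more dendrites than somas. By 3′UTR counts it had reads in 8 and 2 of them, with neuron 2 in common, although the reads numbered 183 in dendrites and 219 in somas. Dendrites ran from 0 to 168 normalized reads (median 0.164), led by neurons 4, 2 and 1 at 168, 111 and 90.7. The somas of neurons 2 and 3 held 602 and 73.0, and the other 14 held 0. Of the 8 dendrites, 4 had at least 10 reads. With neurons 2 and 14 left out, Egr3 was seen in 6 dendrites and 1 soma. No soma with 2 rounds of amplification had an Egr3 read, while 5 of the 12 dendrites with 2 rounds did.

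Nr4a1 (chr15:101254269-101274795, plus strand), the nuclear receptor also called Nur77, had reads in 4 dendrites and 5 somas, with only neuron 10 in common (43.9 normalized reads in dendrites and 7.37 in the soma). Its highest level was 113 in the dendrites of neuron 14 and 30.7 in the soma of neuron 2. Ier2 (chr8:84661331-84662852, minus strand), which encodes a small nuclear protein, had reads in 5 dendrites and 7 somas, with neurons 6 and 8 in common. It was highest in the dendrites of neurons 14, 12 and 8, at 261, 123 and 88.8 normalized reads, and reached 47.8 in the soma of neuron 8. Without neurons 2 and 14, Nr4a1 was seen in 3 dendrites and 4 somas, up to 43.9 and 13.0, and Ier2 in 4 dendrites and 6 somas.

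The reads of a gene in a neuron tended to lie in 1 compartment, with Jun as the exception. The dendritic read fraction, the share of a neuron's normalized reads of a gene that came from its dendrites, was computed where both compartments together had at least 10 normalized reads. Of the 73 such combinations, 28 (38.4%) were above 0.9, 24 (32.9%) were below 0.1 and 21 (28.8%) lay between. These were 20, 20 and 16 of 56 without neurons 2 and 14. Over the genes tested below the shares were 9.90%, 37.5% and 52.6%. For Jun, Junb, Fos and Egr1 alone, 16 of 43 combinations (37.2%) were above 0.9 and 10 (23.3%) below 0.1. Jun lay between in 9 of 13 neurons, with a mean fraction of 0.473 ± 0.369 (SD, n = 13), Fos in 3 of 9 (0.578 ± 0.431), Junb in 3 of 10 (0.556 ± 0.406) and Egr1 in 2 of 11 (0.580 ± 0.473).

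**Figure D4:**
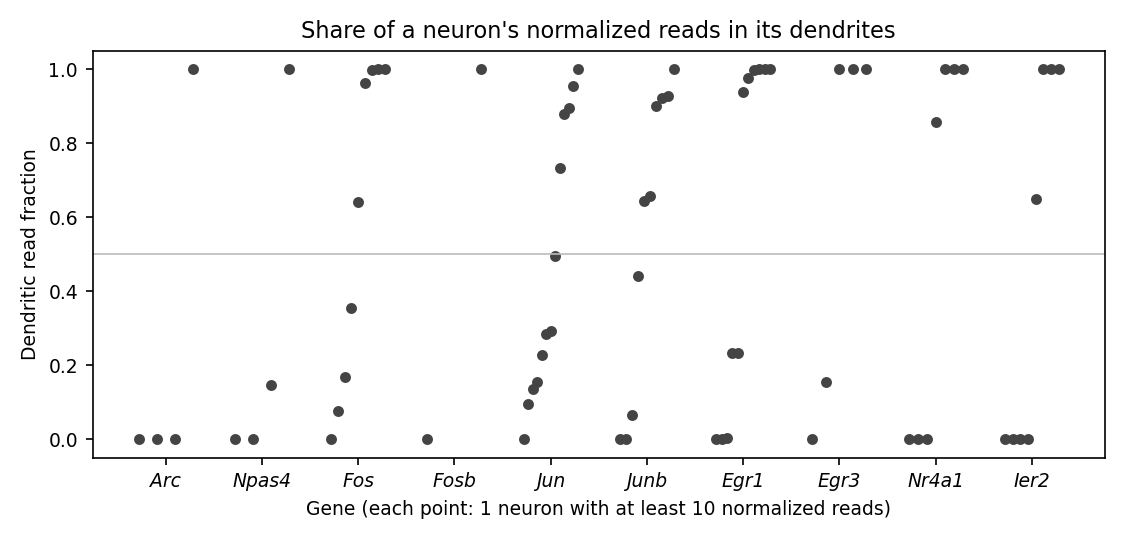
Dendritic read fraction (y axis, 0 for all reads in the soma and 1 for all in the dendrites) of each gene (x axis), with a point for each neuron with at least 10 normalized reads of it. Points gather at 0 and 1 for most genes, and for Jun 9 of 13 lie between 0.1 and 0.9.

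To ask whether any of these genes differed between the compartments of the same neuron, reads were compared with edgeR's quasi-likelihood test with neuron as a block, over the 10880 genes seen in 16 or more libraries. Jun, Junb, Fos and Egr1 were tested, and 0 of 4 passed an adjusted p of 0.05 or an unadjusted p of 0.05. Of all genes tested, 6.53% passed, 0.827% as higher in dendrites and 5.71% as higher in somas, so that a count of 0 in 4 lies near the background. The log2 fold change, dendrites over soma, was 1.46 (SE 2.00, adjusted p = 0.614) for Egr1 and 0.61 (SE 1.54, adjusted p = 0.795) for Fos. It was 0.18 (SE 1.60, adjusted p = 0.946) for Junb and -0.10 (SE 1.17, adjusted p = 0.958) for Jun. These standard errors leave room for several-fold differences either way, and the result does not show that the levels were alike. The median gene stood at -1.49 on this scale, and relative to it the values were 2.95 for Egr1, 2.10 for Fos, 1.67 for Junb and 1.39 for Jun. With the dendrite libraries rescaled to put the median gene near 0, the values were 2.82, 1.99, 1.57 and 1.34, the smallest adjusted p was 0.461, and 5.88% of genes passed, 5.04% as higher in dendrites and 0.846% in somas.

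DESeq2 with the same block also called 0 of the 4 genes, while it called 50.5% of all genes tested (4.26% as higher in dendrites, 46.2% in somas), and its smallest adjusted p among them was 0.205, for Egr1. In a fit of all 31102 genes with a read, which takes in the 6 rare members, edgeR called 0 of 10, where 0.508% of genes passed (0.0482% as higher in dendrites, 0.46% in somas). Egr3 was the only one with an unadjusted p under 0.05 (log2 fold change 3.54, SE 1.42, p = 0.0128, adjusted p = 0.215), and its reads were higher in dendrites in 7 neurons and in the soma in 2. Arc stood at -1.22 (SE 1.34, adjusted p = 0.761) in that fit, Npas4 at -1.29 (SE 1.53) and Ier2 at -1.03 (SE 2.07). The fitted direction ran against the mean normalized reads for Ier2 (32.3 in dendrites, 10.0 in somas), Egr3 (25.8 and 42.2) and Egr1 (100.2 and 121.7). It did so for Fosb too, which stood at -0.23 (SE 0.99) with means of 12.5 in dendrites and 0.781 in somas. Without neurons 2 and 14, 0 of the 4 widely detected genes passed, at 1.56 for Egr1, 1.15 for Fos, -0.21 for Junb and -0.40 for Jun.

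**Figure D5:**
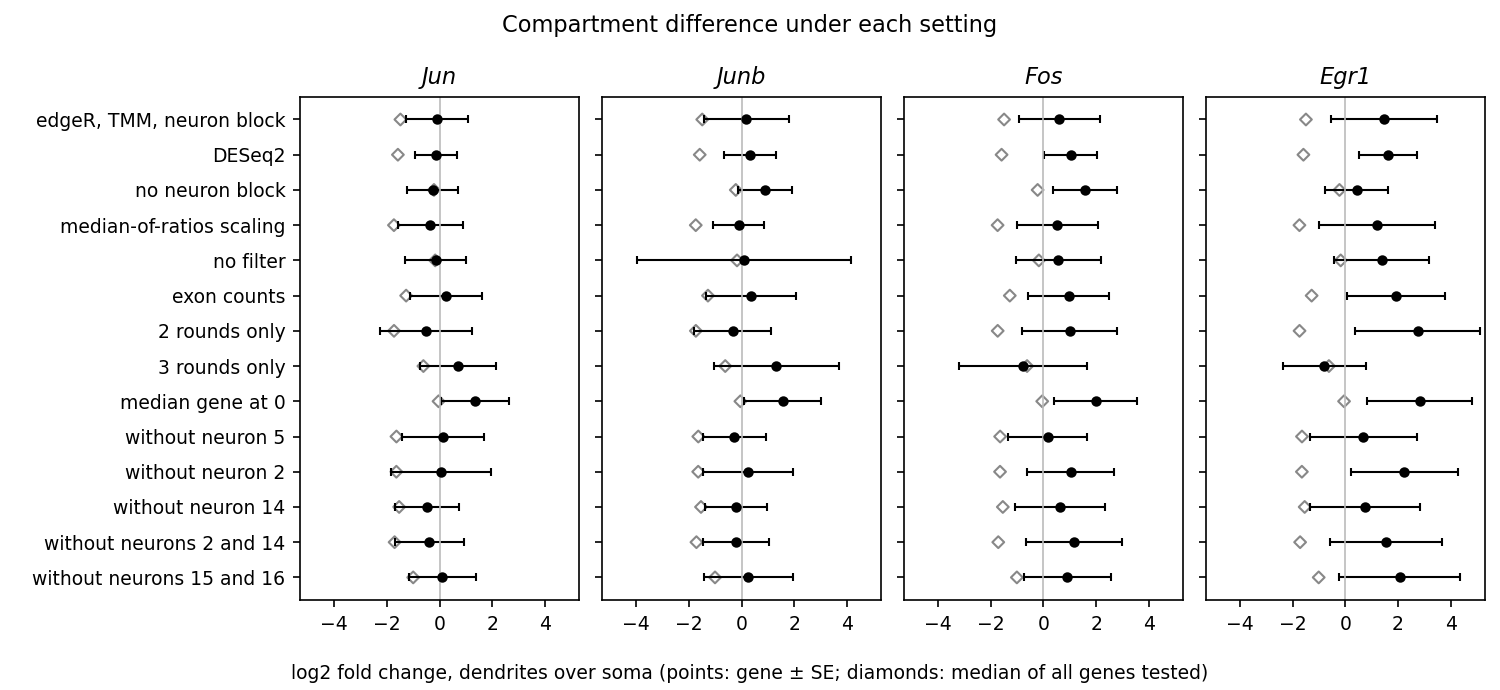
Log2 fold change between dendrites and soma (x axis, points with standard errors) of Jun, Junb, Fos and Egr1 under each setting of the comparison (rows), with the median of all genes tested as open diamonds. Error bars of Jun and Junb cross 0 in every row but that with the median gene near 0, and the estimate of Egr1 runs from -0.79 in the neurons with 3 rounds to 2.82 with the median gene near 0.

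Some genes were seen in a larger share of libraries after 3 rounds of amplification and others after 2, a difference that was not tested. In the 4 neurons with 3 rounds, Jun, Junb and Egr1 had reads in 4 of 4 dendrites and 4 of 4 somas. In the 12 with 2 rounds, Jun had them in 8 dendrites and 9 somas, Junb in 5 and 8, and Egr1 in 6 and 7. Others ran the other way in at least 1 compartment. In dendrites Nr4a1 and Fosb had 0 of 4 at 3 rounds and 4 and 2 of 12 at 2 rounds, and Ier2 had 1 of 4 and 4 of 12. In somas Fos had 2 of 4 and 9 of 12, Ier2 1 of 4 and 6 of 12, and Fosb 0 of 4 and 3 of 12. The share was larger after 3 rounds for Nr4a1 in somas (2 of 4 and 3 of 12) and for Fos in dendrites (3 of 4 and 7 of 12). The same held for Arc, Egr3 and Npas4 in both compartments. The interaction of compartment and rounds passed for 0 of the 10880 genes, with 288 at an unadjusted p under 0.05, and for the 4 genes its adjusted p was 1. In the neurons with 2 rounds alone the log2 fold change of Egr1 was 2.75 (SE 2.37), and in those with 3 rounds it was -0.79 (SE 1.57); Fos stood at 0.99 (SE 1.81) and -0.76 (SE 2.43).

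Among reads on a counted 3′ end, 1 end per gene took nearly all. Of the 3′UTR reads, 66.6% of those of Jun and 75.6% of those of Fos lay on a counted end, and the rest lay on neither. For Egr3 this was 82.1%, and its end reads came from 4 dendrites (130 reads) and 2 somas (200 reads). Arc, Egr1, Nr4a1, Npas4 and Ier2 have a single counted 3′ end. Junb and Egr3 have a second end with 0 reads, and that of Fos had 1 read and that of Fosb 2. Only Jun used its second end to any extent, with 25 of the end reads in dendrites (2.73%) and 213 in somas (7.78%). Neuron 5 gave 15 of the 25, and neuron 11 gave 108 of the 213. In libraries with at least 10 end reads, its share ran from 0% to 31.2% in 8 dendrites and from 0% to 96.3% in 10 somas. The medians were 0.202% and 3.33%, and 4 libraries of each compartment were at 0%. The extreme was the soma of neuron 3, with 26 of 27 reads on the second end (96.3%, 95% Wilson interval 81.7 to 99.3) against 1 of 49 in its dendrites (2.04%, interval 0.361 to 10.7). Neuron 5 went the other way, with 15 of 48 in the dendrites (31.2%, interval 19.9 to 45.3) against 36 of 560 in the soma (6.43%, interval 4.68 to 8.77). These intervals cover counting error only. With 7 neurons measured in both compartments, no shared direction was tested.

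Counting on whole exons in place of 3′UTRs gave similar totals, with 1.00 to 1.12 exon reads for each 3′UTR read in 9 of the 10 genes. Egr3 is the exception, since it is listed at 0 exon reads in every library although it has 402 3′UTR reads. Fosb had exon reads in 8 libraries against 5 by 3′UTR, and Arc in 7 against 6, since the soma of neuron 14 had 1 Arc exon read beside the 78 of its dendrites. Npas4 had exon reads in 16 libraries against 9 and so could be tested on exons, where its log2 fold change was 0.32 (SE 0.96, adjusted p = 0.849). By exons, 0 of 5 genes passed, where 3.62% of all genes did, 1% as higher in dendrites and 2.62% in somas.

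The genes around them in the pathway mostly did not pass in the same test, and those that passed were higher in the soma, as were most calls over all genes. Of 49 other genes induced by activity, 30 were tested and 0 passed in either direction, with a median log2 fold change of -1.44 beside -1.49 for all genes. The smallest p-values belonged to Plk2, a kinase of synaptic scaling (log2 fold change -3.24, SE 1.24, adjusted p = 0.0845), Arl4d, a small GTPase (-3.91, SE 1.55, adjusted p = 0.0952), and Rgs2, a regulator of G protein signalling (-2.30, SE 0.97, adjusted p = 0.112). Of 19 genes that drive immediate early transcription, 19 were tested and 2 passed, both higher in somas, where 5.71% of all genes did. Rps6ka5, the kinase MSK1 that phosphorylates CREB and histone H3, had reads in 15 somas and 5 dendrites (log2 fold change -6.88, SE 1.56, adjusted p = 0.0124). Srf, the serum response factor, had reads in 13 somas and 7 dendrites (-4.39, SE 1.35, adjusted p = 0.0413). The list's median was -1.29, and by exon counts 0 of 18 of its genes passed.

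Of 20 partners and regulators of the encoded proteins, 18 were tested and 2 passed, again higher in somas, beside the 5.71% of all genes. Rnf216, a ubiquitin ligase that acts on Arc, was at -5.87 (SE 1.48, adjusted p = 0.0172) and higher in the soma in 15 neurons. Jdp2, a repressor that pairs with Jun proteins, was at -5.15 (SE 1.37, adjusted p = 0.0213). Of 11 genes for mRNA decay factors, 8 were tested and 0 passed, with Eif4a3, a part of the exon junction complex that marks Arc mRNA for decay, at -4.34 (SE 1.51, adjusted p = 0.0650), Upf1, the helicase of nonsense-mediated decay, at -2.49 (SE 1.18, adjusted p = 0.147) and Cnot1, the scaffold of a deadenylase complex, at -2.89 (SE 1.61, adjusted p = 0.208).

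A list of 9 stress genes was also followed, 8 heat shock genes and chaperones and Ddit3, the stress-induced transcription factor CHOP. Of these, 6 were tested and 3 passed, all heat shock genes and higher in somas, beside 5.71% of all genes: Dnajb1 (log2 fold change -4.37, SE 1.09, adjusted p = 0.0168), Hsph1 (-4.07, SE 1.02, adjusted p = 0.0172) and Hsp90aa1 (-1.57, SE 0.50, adjusted p = 0.0459). The summed level of the list was 6852 to 19089 normalized reads in somas and 23.7 to 10219 in dendrites. With the median gene placed near 0, the soma-high calls were 1 of 19 for the upstream drivers, 0 of 18 for the partners and 0 of 6 for the stress genes, where 0.846% of all genes passed, so that these calls depend on the scaling. Under that scaling 1 gene each of the activity-induced list and of the partners passed as higher in dendrites. Jund and Fosl2 stand in both of these lists, so that the same gene may be counted in each.

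Levels of the widely detected genes were correlated to different degrees. Over 16 somas, Spearman rho was 0.62 between Fos and Egr1, 0.61 between Junb and Fos and 0.58 between Junb and Egr1, while Jun reached at most 0.28 with any of them. Over 16 dendrites, rho was 0.65 between Junb and Egr1 and 0.50 between Jun and Junb, and -0.10 between Fos and Egr1. Between the soma and the dendrites of the same neuron, rho over 16 neurons was 0.42 for Jun, 0.25 for Fos, 0.22 for Junb and 0.06 for Egr1. These values rest on libraries that share depth and detection, and zeros are tied.

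The genes whose levels were most like those of Arc over the 16 somas were AK148841 (rho 0.83), Napepld (0.81), Ddc (0.80), Adamts10 (0.79) and Gm26541 (0.78). All 5 had reads in each of the 4 somas with Arc and in 6 to 10 somas in all. Over the 16 dendrites they were Chac1 and Cnp (both 0.79), Pex2 and Tcof1 (both 0.76) and Fam149a (0.70), a likeness that rests on only 2 dendrite libraries with Arc reads.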

How the data were processed

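Samples were grouped by the compartment and cell number in the labels. Adapters and poly-A stretches were removed by the authors, who then aligned reads to mm10 with STAR 2.4.0 (version per the submitters' processing notes) and counted uniquely mapped, strand-specific reads with VERSE. All deposited values are raw read counts per gene on the union of its 3′UTRs, per 3′ end (the last 500 nt, with ends closer than 500 nt merged) or per gene on exons, with no normalization and no molecular identifiers. Instruments differed between samples (HiSeq or NextSeq) and are not named per sample in the labels.

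From these counts, compartments were compared over the 10880 genes seen (1 read or more) in 16 or more libraries, using edgeR 4.0.16 (TMM, robust quasi-likelihood fit, neuron as a block, Benjamini-Hochberg threshold 0.05, R 4.3.3, limma 3.58.1) and, as an alternative, DESeq2 1.42.0. Both were tested on simulated data. Normalized reads are counts over DESeq2 median-of-ratios size factors. Other values used Python 3.11.15, NumPy 2.4.6, pandas 2.3.3, SciPy 1.17.1 and matplotlib 3.10.9. Standard errors were taken as the fold change over the root of the F statistic.

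The pairing comes from the cells, as both compartments were taken from the same neuron. Deviations from the compartment means correlated at 0.0851 ± 0.0741 (SD, n = 16) within a neuron and at -0.00533 ± 0.0515 (SD, n = 240) between neurons.

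All 10 listed genes are named, with the genes of each pathway list that passed or, where none did, the 3 with the smallest p, and the 5 genes most like Arc in each compartment. The genes and lists were chosen with earlier results of these data known. Alternatives covered the test, block, scaling, filter, exon counts, equal reads, rounds of amplification and neurons left out, and 4 of those with neurons left out (neuron 2, neuron 14, both, and neurons 15 and 16) were chosen after seeing the data. Genes with antisense or near-identical partners were not examined separately. Wilson intervals are at 95% and cover counting error only, since the reads carry no molecular identifiers.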

Additional observations from a re-analysis of the deposited data

How the results depend on the processing

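The number of these genes that passed in either direction was 0 in every fit run: DESeq2, no block, other scalings, no filter, exon counts, each number of rounds alone, and without neuron 5, 2, 14, 2 and 14 together, or 15 and 16. Of the fold changes, 13 turned direction, all with adjusted p of at least 0.624, and the cause was not tested. With 3 rounds only, Fos was at -0.76, Egr1 at -0.79 and Jun at 0.69. Jun was also at 0.25 by exon counts, 1.34 with the median gene near 0 and 0.10 without neurons 15 and 16. Junb was at -0.11 with median-of-ratios scaling, -0.33 with 2 rounds only and -0.21 without neurons 2 and 14. With 1 neuron left out (neuron 5, 2 or 14), Jun ran from -0.50 to 0.12 Junb from -0.28 to 0.25, Fos from 0.16 (without neuron 5) to 1.03 (without neuron 2) and Egr1 from 0.68 (without neuron 5) to 2.23 (without neuron 2). Without the replicate block, which ignores the pairing of the neurons, the log2 fold changes were 0.43 for Egr1, 1.57 for Fos, -0.27 for Jun and 0.88 for Junb, and 157 of all genes passed as dendrite-high and 77 as soma-high. With the block they numbered 90 and 621, and no call of an immediate early gene changed. The genes with reads per library, at a minimum of 10 reads, numbered 2.63 in dendrites and 2.81 in somas, and 4.06 in each when both libraries of a neuron were sampled to equal reads. Counts called over all genes moved more: in dendrites and somas DESeq2 gave 463 and 5029, median-of-ratios scaling 81 and 1008, exon counts 98 and 257, the fits without neuron 5 and without neuron 2 87 and 990 and 116 and 948, 2 rounds alone 43 and 354, the fit without a filter 15 and 143, 3 rounds alone 4 and 1, the rescaled fit 548 and 92, and the fit without neurons 15 and 16 68 and 101. In the pathway lists, DESeq2 called as dendrite-high and soma-high 2 and 12 of 30 activity-induced genes, 0 and 9 of 19 upstream drivers, 1 and 9 of 18 partners, 0 and 6 of 8 decay factors and 0 and 5 of 6 stress genes, where it called 4.26% and 46.2% of all genes, and by exon counts only 1 partner and 2 heat shock genes passed, all soma-high. Of the 10 genes, 6 had reads in too few libraries to be tested, and the part of depth in this was not tested.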
